A study of Mus musculus with 23 samples.

Results

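Immediate early transcription factors are the genes that a cell switches on first after a stimulus, before any new protein has to be made. The 10 genes described here are Fos, Fosb, Jun, Junb, Egr1, Atf3, Ier2, Myc, Nr4a1 and Nr4a3. They were chosen by name as well-known members of this class, with earlier results of these data known. They were matched by symbol to 10 of the 55573 Ensembl gene identifiers of the count matrix. Their mRNA was measured by RNA sequencing of quadriceps muscle in 23 male and female C57Bl6 mice. The study asked whether a glucocorticoid acts differently on the muscle transcriptome of the sexes.

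The mice were 8 to 10 weeks old and carried a slow-release pellet under the skin for 14 days. The treated mice received a pellet of 50 mg corticosterone, the main glucocorticoid of the mouse, with 50 mg cholesterol, and the vehicle mice received 100 mg cholesterol alone. There were 6 vehicle-treated and 5 corticosterone-treated females, and 6 vehicle-treated and 6 corticosterone-treated males. All groups were fasted for 5 hours before death, which was by cardiac puncture under isoflurane. Removal of the adrenal glands is not described, so the vehicle mice are taken to have had their own corticosterone, and 1 time point was sequenced. Mice are named by sex and number, F1 to M12. The libraries held 20904150 to 21984477 reads counted on genes, and levels are given as CPM, the counts of a gene scaled to a common library total and by a normalization factor of 0.832 to 1.21. One count was worth 0.0396 to 0.0552 CPM. The label as muscle was borne out by 8 muscle fiber markers, such as Acta1 and Ckm, which summed to 74760 to 193971 CPM in each mouse.

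In muscle, these genes are known for a short burst after contraction, injury or adrenergic stimulation. Fos and Jun family proteins pair through a leucine zipper into the AP-1 complex, and ATF3 can join them. EGR1 is a zinc finger protein, MYC drives ribosome synthesis and growth, and the NR4A proteins are orphan nuclear receptors that are linked in muscle to glucose and lipid use. Kinases signal to the promoters of these genes through bound factors such as CREB, SRF and the AP-1 proteins themselves, while the ligand-bound glucocorticoid receptor is known to restrain AP-1.

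A promoter window, from 250 bases before to 50 bases after the transcription start, was found in RefSeq (build GRCm38.p6) for 7 of the 10 genes. Windows for Egr1, Ier2 and Myc were not used here. The core CREB site TGACG, searched on both strands, was in 6 of the 7 windows, against 20.8% of all 32851 windows of this length. Those of Nr4a1 and Jun, the genes with a called response below, and of Fos, the founding member of AP-1, are printed for the 120 bases before the start, in the direction of the gene. Capitals mark the TGACG letters, which read CGTCA on the other strand, and in Jun the variant TGACATCA.
Nr4a1: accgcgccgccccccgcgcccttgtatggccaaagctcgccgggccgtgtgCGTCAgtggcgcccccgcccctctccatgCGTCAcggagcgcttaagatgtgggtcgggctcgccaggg
Jun: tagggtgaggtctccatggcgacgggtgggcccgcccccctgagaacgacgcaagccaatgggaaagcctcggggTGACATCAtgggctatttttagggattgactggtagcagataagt
Fos: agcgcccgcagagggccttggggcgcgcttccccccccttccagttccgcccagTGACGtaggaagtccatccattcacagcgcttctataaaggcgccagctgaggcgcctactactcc
The Nr4a1 stretch lies at chr15:101266726-101266845 on the plus strand, in an intron of the longest annotated transcript. The Jun stretch lies at chr4:95052223-95052342 on the minus strand and the Fos stretch at chr12:85473770-85473889 on the plus strand. The whole Nr4a1 window held 4 TGACG sites, that of Fos held 2 and that of Jun held none. The Jun variant TGACATCA was in 3.62% of all windows and in no other of the 7. The palindromic glucocorticoid response element was in 0 of the 7 windows, against 0.475% of all windows, and the complete AP-1 site TGANTCA was also in 0 of 7, against 7.81%. The GC box GGGCGG was in 6 of 7 windows, against 35.7%. Such matches describe letters only, and distant enhancers lie outside these windows.

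Low genes were set aside first, and a gene stayed in when 4 or more mice of some group had over 20 normalized counts. This kept 13049 genes and 9 of the 10 immediate early genes, and Fosb, with 0 to 41 counts per mouse, was not tested. A gene was called changed at an adjusted p under 0.01, from the quasi-likelihood test of edgeR, adjusted after Benjamini and Hochberg over all 13049 genes. Among all tested genes, corticosterone raised 13.2% and lowered 13.1% in males, and it raised 7.40% and lowered 6.0% in females. Of the 9 immediate early genes, 1 was called higher in males (Jun) and 1 was called lower in females (Nr4a1), which is near that background. The median log2 fold change of the 9 genes was 0.48 in males, against -0.02 over all genes, and -0.09 in females, against 0.04. The change in males was towards higher levels in 5 of the 9 genes and in females in 4 of the 9.

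**Figure D1:**
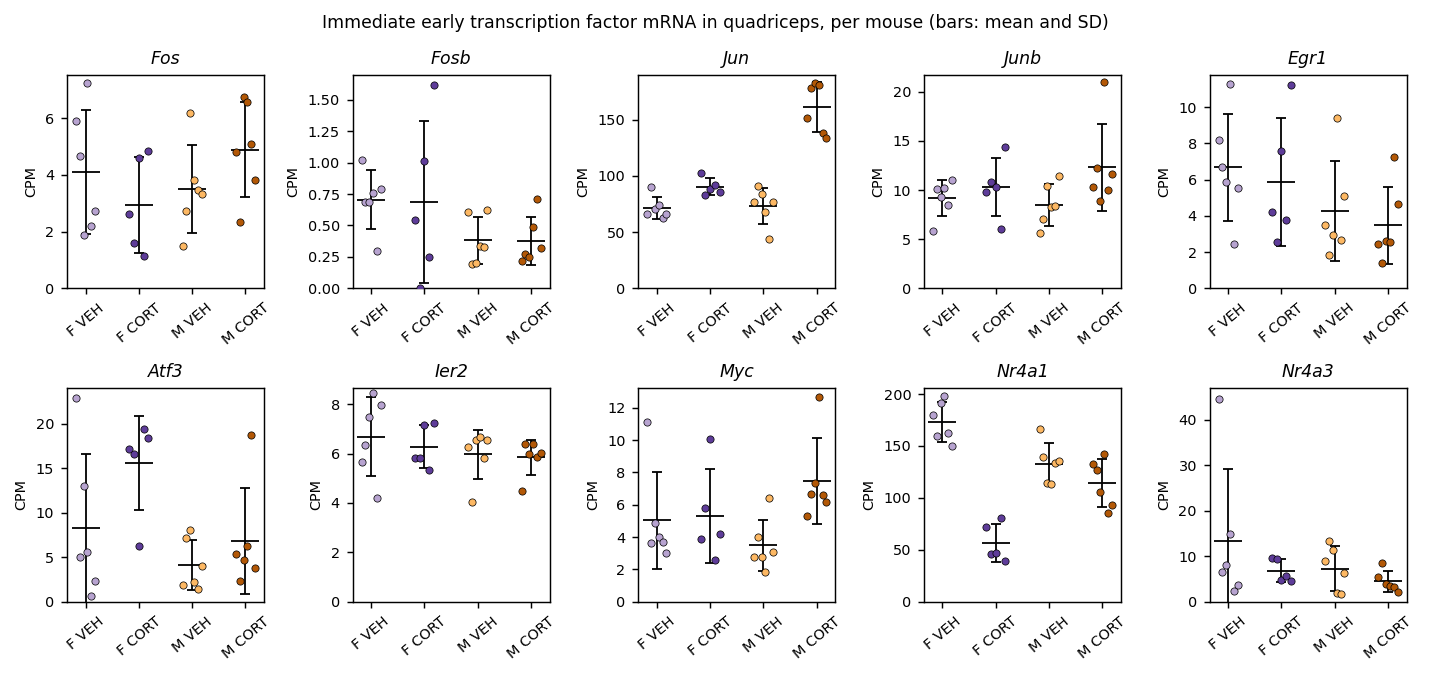
CPM of each of the 10 genes in quadriceps of each mouse (points), with the group mean and SD (lines), for vehicle (VEH) and corticosterone (CORT) females (F) and males (M); each panel has its own linear axis from 0. The 5 corticosterone females lie below all other mice for Nr4a1, and the 6 corticosterone males lie above all other mice for Jun.

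Nr4a1 (Nur77, ENSMUSG00000023034) encodes an orphan receptor that responds to adrenergic and exercise signals in muscle, and it lies on chromosome 15 from 101254269 to 101274795 of GRCm38. In vehicle-treated females it ranged from 150 to 198 CPM with a median of 171 CPM. In the corticosterone-treated females it was 71.8 CPM in F2, 45.7 CPM in F4, 46.4 CPM in F6, 80.2 CPM in F8 and 39.3 CPM in F10. Each treated female was therefore below each vehicle female, with 950 to 1633 counts against 3317 to 4438. Such a separation in the downward direction was seen for 4.36% of all tested genes in females. The mean was 173 ± 19.2 CPM (SD, n = 6) in vehicle and 56.7 ± 18.1 CPM (SD, n = 5) in corticosterone females, and the log2 fold change was -1.61 ± 0.18 (SE, 95% interval -1.98 to -1.25, edgeR adjusted p = 3.74e-06). In bulk tissue, fewer cells that express a gene and less mRNA per cell cannot be told apart.

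In males the ranges of Nr4a1 overlapped. Vehicle males ranged from 113 to 166 CPM with a median of 134 CPM, and corticosterone males ranged from 85.6 to 142 CPM with a median of 117 CPM. The log2 fold change in males was -0.22 ± 0.16 (SE, 95% interval -0.56 to 0.11, edgeR adjusted p = 0.281). The male response minus the female response was 1.39 ± 0.24 on the log2 scale (SE, 95% interval 0.90 to 1.88, edgeR adjusted p = 0.00607). Across all genes, 0.690% were called in this test of the difference between the sexes, and Nr4a1 was the 1 called gene of the 9. The call depended on single mice, since the adjusted p was above 0.01 without F1 (0.0107), F9 (0.0122), F6 (0.0112), F10 (0.0124), M3 (0.0132), M7 (0.0107), M11 (0.0113), M4 (0.0108), M6 (0.0113) or M8 (0.0117), while the difference itself stayed between 1.30 and 1.55 over all single mice left out.

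Nr4a3 (NOR-1), the sister gene of Nr4a1, was far more variable. In vehicle females it ran from 2.34 CPM in F9 to 44.6 CPM in F1, with a median of 7.24 CPM, while the corticosterone females held 9.67 CPM (F2), 9.38 CPM (F4), 4.83 CPM (F6), 5.70 CPM (F8) and 4.51 CPM (F10). Vehicle males ran from 1.59 to 13.3 CPM with a median of 7.62 CPM, and corticosterone males from 2.13 to 8.45 CPM with a median of 3.71 CPM. All of these ranges overlapped. The log2 fold change was -0.96 ± 0.62 in females (SE, adjusted p = 0.266) and -0.72 ± 0.60 in males (SE, adjusted p = 0.359). The intervals, from -2.26 to 0.33 and from -1.96 to 0.53, are wide enough to hold a change as large as that of Nr4a1 in females.

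Jun (ENSMUSG00000052684), the DNA-binding AP-1 subunit that can also pair with itself, lies on chromosome 4 from 95049034 to 95052222. Corticosterone raised it in males. Vehicle males ranged from 44.0 CPM in M9 to 91.0 CPM in M3 with a median of 76.8 CPM, and corticosterone males ranged from 134 CPM in M12 to 183 CPM in M6 with a median of 165 CPM. No treated male overlapped a vehicle male, a pattern that 10.9% of all genes showed upwards and 11% downwards in males. The mean rose from 73.3 ± 16.3 to 161 ± 22.3 CPM (SD, n = 6 each), a log2 fold change of 1.13 ± 0.13 (SE, 95% interval 0.85 to 1.41, edgeR adjusted p = 1.58e-06).

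In females Jun spanned 62.9 to 89.7 CPM with vehicle, with a median of 68.6 CPM. The treated females held 103 CPM (F2), 83.4 CPM (F4), 88.6 CPM (F6), 91.7 CPM (F8) and 85.3 CPM (F10). The ranges overlapped through vehicle mouse F3, at 89.7 CPM, and upward separation without overlap was seen for 3.37% of all genes in females. The log2 fold change was 0.34 ± 0.14 (SE, 95% interval 0.05 to 0.63, edgeR adjusted p = 0.0744). The male response exceeded the female response by 0.79 ± 0.19 (SE, log2 scale, adjusted p = 0.0176), which did not pass the threshold. The antisense gene Junos overlaps Jun on the opposite strand, and the counting used strand.

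**Figure D2:**
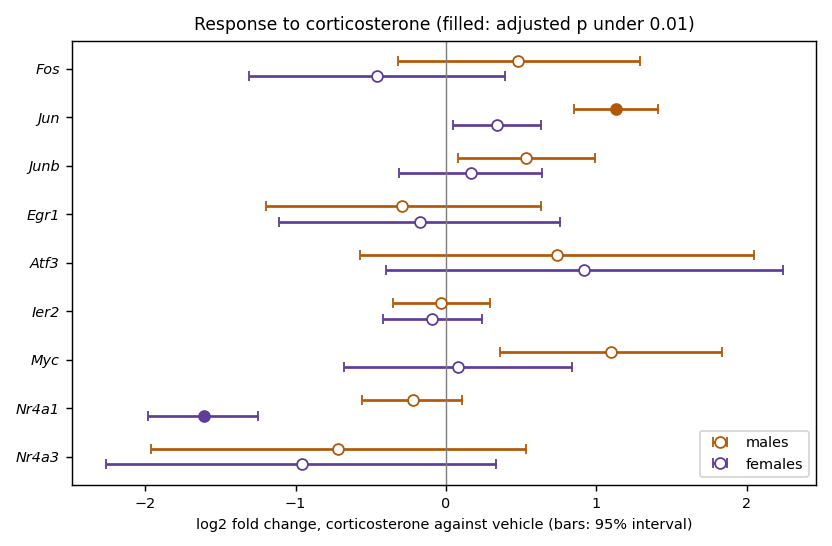
Log2 fold change of corticosterone against vehicle in males (orange) and females (purple) for the 9 tested genes, with 95% intervals (bars); filled circles have an adjusted p under 0.01. Filled circles are at 1.13 for Jun in males and at -1.61 for Nr4a1 in females, and the intervals of Atf3 and Nr4a3 are the widest.

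Junb is the Jun family member that often opposes Jun. Vehicle males ranged from 5.62 to 11.4 CPM with a median of 8.30 CPM, and corticosterone males from 8.89 to 21 CPM with a median of 10.9 CPM, with M8 highest. Its log2 fold change in males was 0.53 ± 0.22 (SE, adjusted p = 0.0574). In females it ranged from 5.85 to 11 CPM with vehicle, and the treated mice held 9.85 CPM (F2), 10.8 CPM (F4), 10.3 CPM (F6), 5.99 CPM (F8) and 14.4 CPM (F10), with a log2 fold change of 0.17 ± 0.23 (SE, adjusted p = 0.632). The female value turned to -0.01 without F10.

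Fos, which forms with Jun a more stable AP-1 than Jun alone, was low in these quadriceps. Vehicle females ran from 1.89 to 7.23 CPM with a median of 3.70 CPM, and the treated females held 2.63 CPM (F2), 1.59 CPM (F4), 4.59 CPM (F6), 1.13 CPM (F8) and 4.83 CPM (F10). Vehicle males ran from 1.49 to 6.18 CPM with a median of 3.41 CPM, and corticosterone males from 2.32 to 6.74 CPM with a median of 4.93 CPM. The estimates had opposite signs, at 0.48 ± 0.39 in males (SE, adjusted p = 0.339) and -0.46 ± 0.41 in females (SE, adjusted p = 0.431). Their difference of 0.94 ± 0.56 (SE, 95% interval -0.23 to 2.11, adjusted p = 0.250) did not pass the threshold.

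Fosb, whose shorter product is known to accumulate under repeated stimulation, was near the detection limit. It was at 0.293 to 1.02 CPM in vehicle females, 0.195 to 0.624 CPM in vehicle males and 0.215 to 0.711 CPM in corticosterone males. The treated females held 0.545 CPM (F2), 0 (F4), 1.01 CPM (F6), 0.246 CPM (F8) and 1.62 CPM (F10). A count of 0 allows up to 3 counts, which is at most 0.166 CPM in these libraries. With looser filters that let Fosb be tested, the adjusted p was 0.960 to 1.0 for corticosterone in each sex, so a change was not detectable at this depth.

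Atf3, a stress-induced member of the ATF and CREB family, varied widely between mice, most of all in vehicle females. Vehicle females ran from 0.586 CPM in F9 to 22.9 CPM in F1, with a median of 5.29 CPM. The treated females held 17.2 CPM (F2), 16.6 CPM (F4), 6.28 CPM (F6), 19.4 CPM (F8) and 18.4 CPM (F10), so that 4 of the 5 were above all vehicle females but F1. The log2 fold change was nevertheless 0.92 ± 0.64 (SE, 95% interval -0.40 to 2.24, adjusted p = 0.303). In males the range was 1.36 to 8.07 CPM with vehicle (median 3.13 CPM) and 2.32 to 18.7 CPM with corticosterone (median 5.01 CPM), with a log2 fold change of 0.74 ± 0.63 (SE, adjusted p = 0.369).

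Egr1 and Ier2 respond to serum and stretch in many cells, and neither was called in a comparison. Egr1 ran from 2.44 to 11.3 CPM in vehicle females and from 1.85 to 9.40 CPM in vehicle males. It was 4.22 CPM (F2), 2.55 CPM (F4), 7.60 CPM (F6), 3.78 CPM (F8) and 11.2 CPM (F10) in treated females and ran from 1.38 to 7.25 CPM in treated males. Its log2 fold change was -0.17 ± 0.45 in females and -0.29 ± 0.44 in males (SE, adjusted p = 0.811 and 0.633). Ier2 kept within 4.05 to 8.45 CPM in all 23 mice, and its 95% intervals for the log2 fold change were narrow, from -0.42 to 0.24 in females and from -0.35 to 0.29 in males. For Ier2 the data therefore leave room only for changes within these bounds, while for Egr1 the interval in males reached from -1.20 to 0.63.

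Myc, which controls ribosome synthesis and cell growth with its partner MAX, was higher in treated males but did not pass the threshold. Vehicle males ran from 1.81 CPM in M7 to 6.42 CPM in M9 with a median of 2.93 CPM, and corticosterone males from 5.28 CPM in M2 to 12.7 CPM in M8 with a median of 6.66 CPM. Each of the 6 treated males was above the vehicle mean, and M9 was the one vehicle male within the treated range. The log2 fold change was 1.10 ± 0.36 (SE, 95% interval 0.36 to 1.84, edgeR adjusted p = 0.0173). The adjusted p was under 0.01 in 6 of 33 alternatives. These were without F1 (0.00705), F6 (0.00981) or M9 (0.00517), by DESeq2 (0.00543), by limma-voom (0.00568) and with each sex fitted alone (0.00701). Over all 33 the log2 fold change ran from 0.88 to 1.37, and the adjusted p reached 0.0597.

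In females the Myc values of the treated mice were 3.86 CPM (F2), 5.77 CPM (F4), 10.1 CPM (F6), 2.60 CPM (F8) and 4.16 CPM (F10), within the vehicle range of 3.04 to 11.1 CPM but for F8. The log2 fold change was 0.08 ± 0.37 (SE, 95% interval -0.68 to 0.84, adjusted p = 0.896). The difference between the responses of the sexes was 1.02 ± 0.51 (SE, adjusted p = 0.171), so a different response of Myc was not shown.

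The sexes were also compared directly. In vehicle mice, 0.690% of all genes were higher and 0.268% were lower in males. None of the 9 immediate early genes was called in this comparison by edgeR, DESeq2 or limma-voom, with 1 unadjusted p under 0.05 by edgeR, that of Nr4a1. Its log2 difference of males minus females was -0.38 ± 0.16 (SE, edgeR adjusted p = 0.288). The estimate was lower in males for 8 of the 9 genes, all but Jun, with a median of -0.38 against -0.00 over all genes.

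In corticosterone mice, 9.31% of all genes were higher and 14% were lower in males. Jun and Nr4a1 were both called higher in males, and no male overlapped a female for either gene, a separation that 6.87% of all genes showed upwards and 5.54% downwards. The difference of males minus females was 0.83 ± 0.14 for Jun (SE, log2 scale, adjusted p = 0.000245) and 1.01 ± 0.17 for Nr4a1 (SE, log2 scale, adjusted p = 0.000249). The 2 genes reached this in different ways, since the Jun levels of treated males stood above those of vehicle males and the Nr4a1 levels of treated females stood below those of vehicle females. Both calls were lost when F2, F6 and F10 were left out, which leaves 2 treated females (0.90, adjusted p = 0.0153 for Jun and 0.88, adjusted p = 0.0213 for Nr4a1, on the log2 scale).

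Levels can be compared between genes only per length of transcript. Per kilobase of exon, Nr4a1 and Jun stood above all other members in each group. In vehicle females Nr4a1 was at 49.4 ± 5.46 and Jun at 22.4 ± 3.05 CPM per kilobase (SD, n = 6), followed by Ier2 at 4.39 ± 1.05, Junb at 3.98 ± 0.797 and Atf3 at 3.82 ± 3.88, which did not differ beyond their spread. Nr4a3 (2.22 ± 2.66), Myc (1.85 ± 1.11), Fos (1.74 ± 0.925) and Egr1 (1.49 ± 0.657) likewise lay within one another's spread, and Fosb was lowest at 0.113 ± 0.0380. In corticosterone males the order of the top pair turned, with Jun at 50.5 ± 7.01 and Nr4a1 at 32.6 ± 6.54 CPM per kilobase (SD, n = 6). In corticosterone females it turned as well, with Jun at 28.4 ± 2.44 and Nr4a1 at 16.2 ± 5.16 (SD, n = 5), whereas in vehicle males Nr4a1, at 38.0 ± 5.59, was above Jun, at 23 ± 5.12 (SD, n = 6).

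The 9 genes fell apart in how much they varied between mice of 1 group. The SD of log2 CPM was 1.84 for Atf3 and 1.5 for Nr4a3 in vehicle females, where the median SD of genes within 0.5 log2 units of the same level was 0.26 and 0.25. Egr1 had an SD of 0.73 to 0.84 in the 4 groups and Fos of 0.56 to 0.91. Nr4a1 varied by 0.16 in vehicle females, the same as the median of genes of its level, and by more than its peers in the other groups, at 0.45 against 0.24 in corticosterone females, 0.21 against 0.14 in vehicle males and 0.30 against 0.14 in corticosterone males. Jun was below its peers in corticosterone females, at 0.12 against 0.23, and above them in the other groups, at 0.18 against 0.16 in vehicle females, 0.37 against 0.14 in vehicle males and 0.20 against 0.15 in corticosterone males. Ier2, at 0.19 to 0.37, was below its peers in both corticosterone groups. The genes with the largest SDs, Atf3 and Nr4a3, also had the widest intervals of the response.

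**Figure D3:**
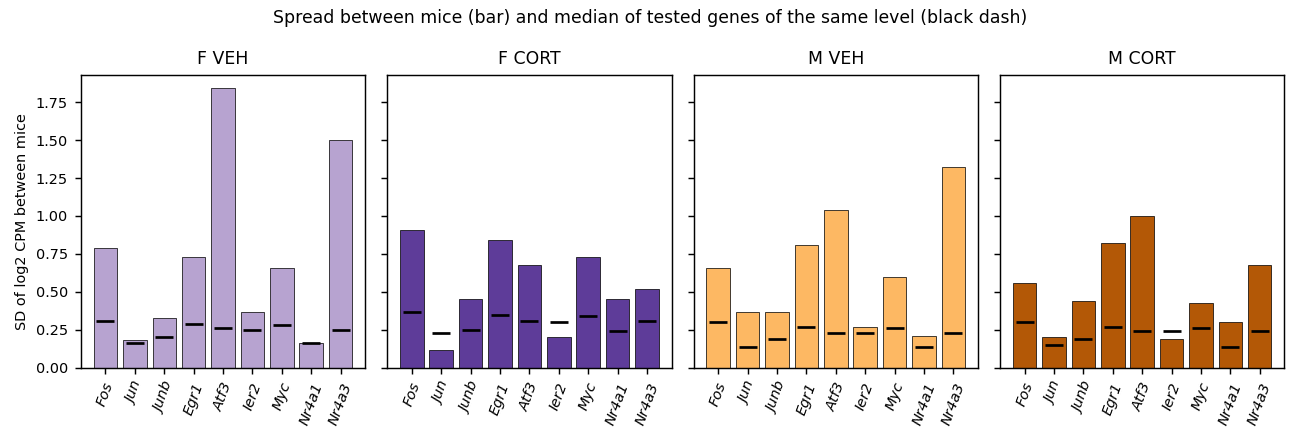
SD of log2 CPM between the mice of each group (bars) for the 9 tested genes, with the median SD of tested genes of the same level (black dashes). Atf3 reaches 1.84 and Nr4a3 1.5 in vehicle females, while Jun, Junb, Ier2 and Nr4a1 stay at or below 0.45 in all 4 groups.

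The deviations of single mice from their group were shared only in part. F9 was below the group mean of log2 CPM for all 9 genes and lowest in its group for 5, and F7 was above it for 8 and highest for 4. M11 was above the mean for 8 of the 9 genes, and M8 was highest of the treated males for 3. Over the 36 pairs of genes in 23 mice, after the group means were removed, the median Pearson correlation was 0.08, with 23 positive and 13 negative pairs. Only 4 pairs exceeded 0.5, namely Atf3 with Nr4a3 (r = 0.63, Spearman's rho = 0.51), Egr1 with Ier2 (0.57 and 0.58), Fos with Egr1 (0.54 and 0.50) and Jun with Nr4a3 (0.53 and 0.57). The lowest pair was Egr1 with Nr4a1 (r = -0.40, rho = -0.41). All points of a mouse share 1 library, and these correlations are descriptions. The 2 genes with a called response, Jun and Nr4a1, had r = 0.30 and rho = 0.46.

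**Figure D4:**
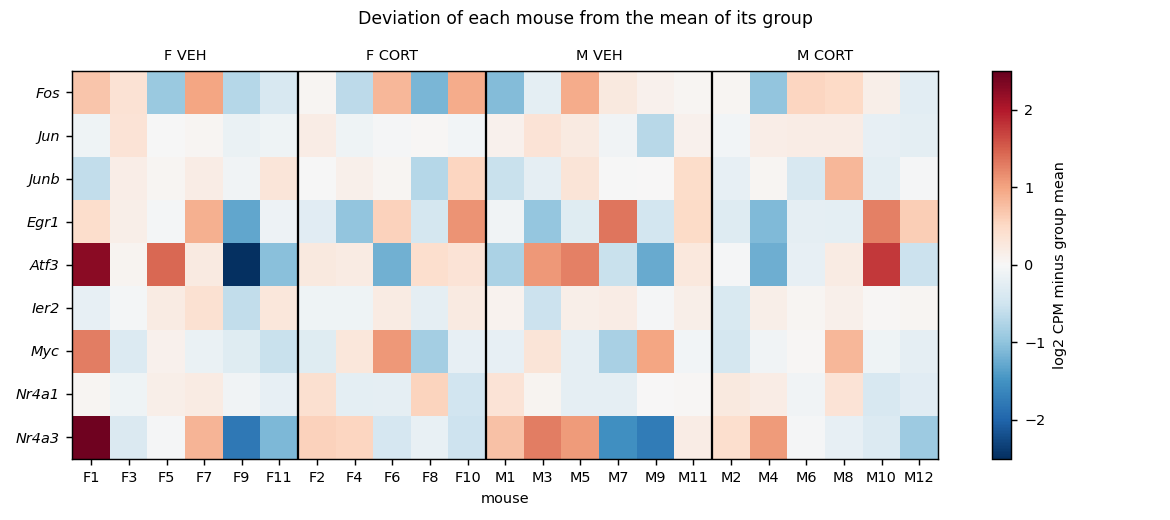
Log2 CPM of each mouse minus the mean of its group (color, from blue for lower to red for higher), for the 9 tested genes (rows) in the 23 mice (columns). The F9 column is blue for all 9 genes, and F1 is highest of the vehicle females for Atf3, Myc and Nr4a3.

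Outside the set, the genes whose group-centred log2 CPM followed the mean of the 9 genes most closely over the 23 mice were Klf11 (r = 0.74), Fam111a (0.72), Tmem173 (0.72), Rgs2 (0.70) and Ikbkg (0.68). The closest to Fos were Slc39a1 (0.77), Mir99ahg (0.72) and Tmtc4 (0.71), and to Egr1 they were Prim1 (0.79), Accs (0.78) and Slc7a1 (0.77). Myc was followed most closely by Scyl3 (0.74), Agt (0.72) and Nono (0.70), and Nr4a1 by Snx3 (0.82), 2210408F21Rik (0.80) and Znhit1 (0.80). Each is among the highest values over the 13049 tested genes.

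The wider gene families give the setting of these 10 genes. Their lists, too, were chosen with earlier results of these data known. Among 30 other immediate early genes that passed the filter, of 30 listed, 16 rose and 0 fell in males, and 11 rose and 0 fell in females, against 26.3% and 13.4% of all genes called in either direction. Cebpd, an early transcription factor of the acute phase, rose by 3.31 ± 0.50 in males and 2.04 ± 0.50 in females (log2, SE, adjusted p = 3.01e-05 and 0.00464). Rhob, a small GTPase, rose by 2.14 ± 0.27 and 1.45 ± 0.27 (adjusted p = 3.38e-06 and 0.000728). Ccn1, a matrix-associated signalling protein, rose by 2.04 in males and 1.32 in females, and Klf10, a zinc finger factor, rose by 1.92 and 1.09 (adjusted p between 3.30e-06 and 0.00265). Cebpd and Klf10 are also known as direct targets of the glucocorticoid receptor.

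That list stood in contrast to the 9 named factors in its counts, although no test set the lists against each other. No gene of it was called for a difference in response between the sexes by edgeR or limma-voom, with 10 unadjusted p under 0.05 in each, and 1 was called by DESeq2. Without F2, F6 and F10, 0 of the 30 genes was called in females by edgeR, with 8 unadjusted p under 0.05. Without F10, M8, M9 and M12, 6 were called in females and 14 in males. The former setting leaves 2 treated females. A call that rested on the mice left out and one lost to smaller groups cannot be told apart there, nor for the lists below.

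The AP-1 relatives held 8 tested genes of 12 listed, and 3 rose in males and 2 in females. This was 37.5% and 25.0% of the 8, against 26.3% and 13.4% of all genes called in either direction. Maff, a small Maf protein, rose by 1.03 ± 0.25 in males and 1.19 ± 0.26 in females (log2, SE, adjusted p = 0.00232 and 0.00191). Fosl2, a Fos relative, rose by 0.84 ± 0.18 and 0.76 ± 0.19 (adjusted p = 0.000873 and 0.00491), from 13.0 ± 0.980 to 23.2 ± 4.04 CPM in males and from 15.1 ± 2.43 to 25.4 ± 9.60 CPM in females. Mafk rose in males by 0.69 ± 0.11 (adjusted p = 5.36e-05), with 0.17 ± 0.12 in females (adjusted p = 0.298). The 2 calls in females were lost without F2, F6 and F10, with 2 unadjusted p under 0.05, and without F10, M8, M9 and M12 2 genes were called in males and 1 in females.

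Of the EGR and NR4A relatives and their NAB corepressors, 3 of 6 were tested, and Egr2, Egr3 and Egr4 did not pass the filter. None was called for corticosterone in either sex by edgeR, DESeq2 or limma-voom, with 0 unadjusted p under 0.05 in males and 1 in females by edgeR. In corticosterone mice Nr4a2, the third NR4A receptor, was lower in males than in females (log2 difference -1.21 ± 0.32, SE, adjusted p = 0.00531), at 0.682 ± 0.207 against 1.57 ± 0.462 CPM, which is the opposite direction to Nr4a1. Nab1 was also lower in treated males (-0.60 ± 0.15, adjusted p = 0.00372). Both calls were lost without F2, F6 and F10, with 0 unadjusted p under 0.05, and without F10, M8, M9 and M12, with 2.

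The partners and antagonists of MYC held 9 tested genes of 10. In males 3 rose and 0 fell, which is 33.3% against 26.3% of all genes called in either direction. In females 2 rose and 1 fell, which is 33.3% against 13.4%. Max, the obligate partner, rose by 0.66 ± 0.08 in males and 0.33 ± 0.08 in females (log2, SE, adjusted p = 1.72e-06 and 0.00491). Mxi1, a MAX-binding antagonist of MYC, rose by 0.98 ± 0.11 and 0.45 ± 0.11 (adjusted p = 6.68e-07 and 0.00508), and Mxd4, of the same kind, rose by 0.38 ± 0.11 in males (adjusted p = 0.00699). Mycn fell in females by 2.14 ± 0.50 (log2, SE, adjusted p = 0.00344), from 2.68 ± 1.77 to 0.602 ± 0.278 CPM. Without F2, F6 and F10, edgeR called 0 of these 9 genes in females, with 3 unadjusted p under 0.05. Of 14 MYC target genes of the nucleolus and of growth, 6 rose in males, namely Bop1 (0.58), Nop56 (0.43), Wdr43 (0.42), Nolc1 (0.37), Nop58 (0.36) and Ncl (0.31 on the log2 scale, adjusted p from 6.23e-05 to 0.00580). These 6 were 42.9% of the list, against 26.3% of all genes called in either direction in males. Without F10, M8, M9 and M12, edgeR called 4 of the 14 in males. None of the 14 was called in females by edgeR, DESeq2 or limma-voom, with 6 unadjusted p under 0.05 in each. The difference between the sexes was called for none by edgeR, with 6 unadjusted p under 0.05, and for 2 each by DESeq2 and limma-voom. Odc1, the rate-limiting enzyme of polyamine synthesis, was higher in males in vehicle (log2 difference 1.45 ± 0.23, adjusted p = 0.000484) and corticosterone mice (1.78 ± 0.24, adjusted p = 4.60e-05).

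**Figure D5:**
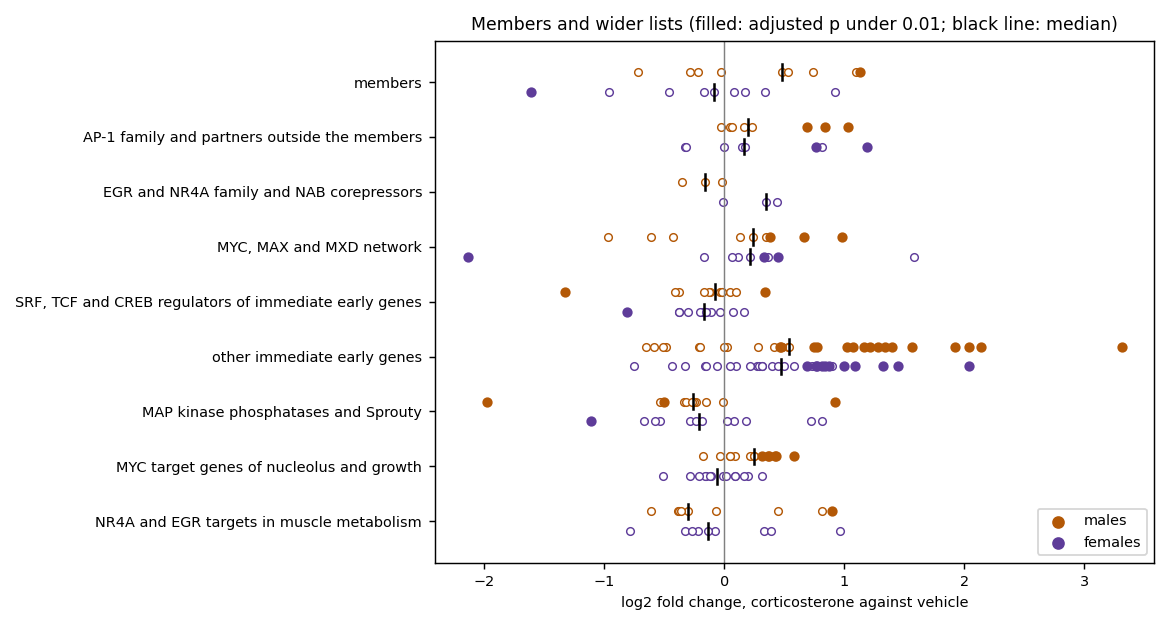
Log2 fold change of corticosterone against vehicle in males (orange) and females (purple) for each tested gene of the immediate early transcription factors and of 8 wider lists; filled points have an adjusted p under 0.01 and black lines are medians. The other immediate early genes hold 16 filled points in males and 11 in females, all to the right of 0.

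Among the regulators that act on immediate early promoters, 12 of 12 were tested. Mrtfa, the actin-regulated coactivator of SRF, fell by 1.33 ± 0.16 on the log2 scale in males and by 0.81 ± 0.16 in females (SE, adjusted p = 1.55e-06 and 0.00112), and Elk4, an SRF partner, rose in males by 0.34 ± 0.09 (adjusted p = 0.00590). Srf, Creb1 and the other 8 regulators were not called in either sex, and 4 of the 12 had an unadjusted p under 0.05 in each sex by edgeR. The calls were 16.7% of this list in males and 8.33% in females. Over all genes, 26.3% and 13.4% were called in either direction. The feedback phosphatases and Sprouty proteins held 12 tested genes of 13, of which Dusp10 fell by 1.98 ± 0.24 in males and by 1.11 ± 0.25 in females (log2, SE, adjusted p = 2.13e-06 and 0.00271). Dusp7 rose by 0.92 ± 0.23 and Spred1 fell by 0.50 ± 0.14 in males (adjusted p = 0.00288 and 0.00754). The calls were 25.0% of the phosphatase and Sprouty list in males and 8.33% in females, against the same 26.3% and 13.4%. Without F2, F6 and F10, neither Mrtfa nor Dusp10 was called in females, and without F10, M8, M9 and M12, neither Elk4 nor Dusp7 was called in males. In that last setting 1 of the phosphatase and Sprouty genes was called lower in males, against 2 with all mice. Of 9 genes that NR4A and EGR proteins are known to control in muscle metabolism, edgeR called 0 in females, with 3 unadjusted p under 0.05, while DESeq2 called 1 and limma-voom 0.

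Marker mRNA of other cell types moved with treatment in part of the mice, and cell number and mRNA per cell cannot be told apart here either. The summed level of 6 adipocyte markers was 258 to 6235 CPM in corticosterone females, against 275 to 2443 CPM in vehicle females, and F2 (3189), F6 (6235) and F10 (2966) were above every vehicle mouse. The same sum was 215 to 939 CPM in vehicle and 275 to 858 CPM in corticosterone males. With F2, F6 and F10 left out, Nr4a1 in females still fell by 1.47 on the log2 scale (adjusted p = 0.00122), and its difference between the sexes was 1.26 (adjusted p = 0.0373). Among the treated females, F8 had an adipocyte sum of 258 CPM with 80.2 CPM of Nr4a1, and F4 had 1067 with 45.7 CPM. F10 had 2966 with 39.3 CPM, F2 had 3189 with 71.8 CPM and F6 had 6235 with 46.4 CPM. All of these Nr4a1 levels were below those of the vehicle females. The summed level of 5 hepatocyte markers, which muscle should lack, was 1318 to 2245 CPM in F10, M8, M9 and M12. It was 996 CPM in F6 and at most 284 CPM in the other mice. Without F10, M8, M9 and M12, a setting that keeps F6, Nr4a1 in females fell by 1.52 (adjusted p = 4.96e-05).

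Fibroblast markers fell for 3 of 5 genes in males and 2 of 5 in females, with summed levels of 309 to 469 CPM in corticosterone against 746 to 1071 CPM in vehicle males. Of the 4 satellite cell markers, 1 fell in males and 3 in females, and 4 of 5 erythrocyte genes rose in both sexes. Over all genes, 26.3% were called in males and 13.4% in females. Without F2, F6 and F10, edgeR called 0 fibroblast, satellite cell and erythrocyte markers in females, with 2, 3 and 1 unadjusted p under 0.05. Without F10, M8, M9 and M12, it called 1, 3 and 0 of them in females and 3, 1 and 2 in males. The summed level of 5 neutrophil genes was 0.342 to 1.77 CPM in vehicle and 1.27 to 7.48 CPM in corticosterone females, and 0.750 to 1.63 CPM and 1.78 to 4.22 CPM in males. S100a8, the 1 neutrophil gene that was tested, rose by 2.22 ± 0.60 in males and 2.91 ± 0.68 in females (log2, SE, edgeR adjusted p = 0.00531 and 0.00367), from means of 0.247 and 0.123 CPM to 1.15 and 0.945 CPM, and limma-voom called it in neither sex. Of 6 macrophage markers, edgeR called 0 in either sex, with 3 unadjusted p under 0.05 in each. DESeq2 called 1 lower in males and 3 higher in females, and limma-voom called 0 in males and 2 higher in females. Their sum was 62.8 to 192 CPM in treated against 51.9 to 109 CPM in vehicle females. In males it was 51.6 to 74.4 CPM in treated against 33.5 to 130 CPM in vehicle mice. Of 6 endothelial markers, edgeR called 1 in males, Tek (-0.52 on the log2 scale, adjusted p = 0.00616), with 5 unadjusted p under 0.05, while DESeq2 and limma-voom each called 2 lower. Of 5 smooth muscle and pericyte markers Des, which muscle fibers also express, was the 1 called in each sex (1.21 in males and 0.64 in females, adjusted p = 1.41e-06 and 0.00310). In corticosterone mice 4 of 4 Schwann cell, 4 of 5 fibroblast and 4 of 6 macrophage markers were lower in males than in females. Over all genes, 23.3% were called in this comparison in either direction. Of the other marker lists, 1 of 6 adipocyte and 1 of 4 satellite cell markers were lower in males. For smooth muscle and pericytes, 1 of 5 markers was higher in males. None of the tested muscle fiber, endothelial, erythrocyte, hepatocyte and neutrophil markers was called in this comparison. Without F2, F6 and F10, and likewise without F10, M8, M9 and M12, edgeR called 0 of the Schwann cell and macrophage markers there and 3 of the fibroblast markers. The unadjusted p was under 0.05 for 0 Schwann cell and 2 macrophage markers in the former case and for 4 and 5 in the latter. The part of these shifts in the levels of the immediate early genes was not tested.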

How the data were processed

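Quadriceps RNA of 23 mice was sequenced as paired reads of 100 bases. Per the labels and the methods, the authors aligned the reads with STAR 2.7.3a to mm10 and counted them per gene with HTSeq 0.12.4 and Ensembl release 97, by strand. The deposited values are raw counts per gene, not normalized. Rows that name no gene (10.7 to 15.3% of reads per mouse) were left out. The 55573 gene identifiers were named with GENCODE M21, where 55480 matched.

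CPM values used TMM factors from edgeR 4.0.16 in R 4.3.3. One quasi-likelihood model with 4 group means gave 5 comparisons: corticosterone against vehicle in each sex, the difference of these responses, and males against females within each treatment. A gene was tested where 4 or more mice of some group had over 20 normalized counts, with Benjamini-Hochberg adjustment and a threshold of 0.01. This filter and threshold are those of the study's methods, whose use of DESeq2 and limit of 1 on the log2 fold change were alternatives here. Log2 CPM used a prior count of 1, the SE is the log2 fold change divided by the root of its F statistic, and CPM per kilobase used the summed exon length. Lists were described by counts, without set tests. One list result in males is not reported here. The script was tested on simulated data.

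The 10 genes, the wider lists and the marker lists were chosen with earlier results of these data known. The text names all 10 genes, the list genes past the threshold in a sex (at most 4 per list and sex by size of change, and others where a sentence on a family turns on them), and the genes most correlated with the mean of the set and with Fos, Egr1, Myc and Nr4a1. All mice of a sex and treatment were taken as separate animals by their numbers. No 2 libraries agreed within sampling noise, with a chi-square per degree of freedom of at least 13.2 between mice of a group. Alternatives were DESeq2 1.42.0, limma-voom (limma 3.58.1) with sample weights, other filters and scaling, each sex alone, a limit on fold change, a replicate block and mice left out; leaving out the mice with high adipocyte or hepatocyte markers was added after seeing the data. Intervals and the limit from a count of 0 cover counting error or the spread between these mice only.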

Additional observations from a re-analysis of the deposited data

Results flagged for a closer look

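In groups of 5 or 6 mice, a highest or lowest mouse was marked when its gap to the next mouse took more of the group's range than Dixon's 95% value allows. This was met in 8 of 40 groups of the 10 genes, where a rate of about 5% would give about 2. That rate holds for normally distributed values, which CPM need not be, and the genes share the same mice. Whether 8 exceeds chance was therefore not tested. Mouse M8 stood apart for Junb at 21 CPM and for Myc at 12.7 CPM among corticosterone males. Mouse F1 stood apart for Myc at 11.1 CPM and for Nr4a3 at 44.6 CPM among vehicle females. For Atf3, F6 was low at 6.28 CPM among corticosterone females and M10 was high at 18.7 CPM among corticosterone males. For Ier2, M3 was low at 4.05 CPM among vehicle males and M2 was low at 4.47 CPM among corticosterone males. M8 also had the highest hepatocyte marker sum, at 2245 CPM, and F6 the highest adipocyte marker sum, at 6235 CPM, and the part of either in these values was not tested.

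The response of Nr4a1 differed between the sexes by 1.39 on the log2 scale (male response minus female response; edgeR adjusted p = 0.00607). All 5 corticosterone females were below all 6 vehicle females, while the ranges of the male groups overlapped. For Jun the same difference was 0.79, with an edgeR adjusted p of 0.0176 and a DESeq2 adjusted p of 0.00202.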

How the results depend on the processing

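Jun in males (log2 fold change 1.02 to 1.20) and Nr4a1 in females (-1.77 to -1.47) were called in all 33 alternatives run for each. The Nr4a1 difference between the sexes kept its direction in all 33 (1.23 to 1.55) and passed the threshold in 20. In males the number of genes called was 2, Jun and Myc, by DESeq2, by limma-voom and with each sex fitted alone, and it was 1 to 2 when 1 mouse was left out. For the difference between the sexes it was 2 by DESeq2 (Jun and Nr4a1), 0 to 1 when 1 mouse was left out, and 0 without F10 and M8, without F2, F6 and F10, or without F10, M8, M9 and M12. In corticosterone mice the number that differed between males and females was 1 with a limit of 1 on the log2 difference (Nr4a1) and 0 without F2, F6 and F10. These leave-outs leave fewer mice, and the cause of the other shifts was not tested.

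Estimates that changed sign were all below the threshold. They were the Nr4a3 difference between the sexes by limma-voom (-0.04) and, without F10 and M8, Junb in females (-0.01) and the Egr1 difference between the sexes (0.37). Without F2, F6 and F10 they were Junb in females (-0.13), Myc in females (-0.27), the Egr1 difference (0.81), and males against females with corticosterone for Egr1 (0.16) and Ier2 (0.09). Without F10, M8, M9 and M12 they were Junb in females (-0.01) and the Egr1 difference (0.16). With 1 mouse left out, the difference between the sexes spanned -0.66 to 0.51 for Nr4a3 (lowest without F1), -0.46 to 0.29 for Egr1, -0.81 to 0.12 for Atf3 and -0.03 to 0.16 for Ier2. The response in females spanned -0.58 to 0.04 for Egr1, -0.31 to 0.47 for Myc (lowest without F6) and -0.01 to 0.31 for Junb. The response in males spanned -0.64 to 0.11 for Egr1 (highest without M7) and -0.12 to 0.03 for Ier2. Males against females with vehicle spanned -1.14 to 0.04 for Nr4a3, -0.46 to 0.01 for Fos and -0.04 to 0.15 for Jun.

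Mice of the same number in both sexes share only that number: over 11 such pairs the correlation of deviations ran from -0.38 to 0.48, 7 were over 0.1, and 4 mice correlated best with their own number. With the number as a replicate block, the difference between the sexes was again called for 1 gene, Nr4a1 (1.48), vehicle mice gave 0 genes and corticosterone mice gave 2. Treated and vehicle mice of a sex share no number, so no block could be fitted there.

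The intervals of Atf3, Nr4a3, Egr1, Fos and Myc span more than 1 log2 unit, which limits the changes that were detectable, and Fosb, at 0 to 41 counts, is limited by depth. Sex and any batch of handling cannot be told apart, since the sources do not give one.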
